A study of Mus musculus with 8 samples.

Results

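The genes followed here in mouse neurospheres act in pericellular proteolysis: the urokinase receptor Plaur, the plasminogen activators Plau and Plat, the serpin Serpine2, the metalloproteinases Mmp2 and Mmp14, and the tissue inhibitors of metalloproteinases Timp1, Timp2 and Timp3. These were 9 of the 20660 genes that array probes could be matched to by accession, and 10 of the 55681 probes belonged to them, 2 to Timp2 and 1 to each other gene. The set was put together by function and chosen by the measured signals of Plaur and Timp1, which were far lower on arrays with little Cbx3 signal. The levels of the 9 genes against the Cbx3 level are therefore given as a description. Where counts of genes past a test threshold are printed for that comparison, nothing is read from them.

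Neurospheres are balls of cells that neural stem cells form in suspension, and these were derived from the ganglionic eminence of embryos at E14.5. Per the labels, each sample came from a single embryonic brain, was grown for 7 days per passage with 5 ug/ml heparin and with EGF and bFGF at 20 ng/ml each, and was taken as quaternary neurospheres. The groups were HP1gamma KO adherent (2 arrays), HP1gamma KO floating (3 arrays) and wild type floating (3 arrays), called KO adherent, KO floating and WT floating below; HP1gamma is the chromatin protein encoded by Cbx3. The labels give one protocol on low-attachment plates for adherent and floating samples alike, while the kind of allele, the strain and whether an adherent and a floating sample share an embryo are not given in the sources used here. All 8 samples were hybridised with Cy3-labelled RNA to arrays of 1 slide.

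Plasminogen activators cut plasminogen into plasmin, a broad protease of the cell surface and matrix. Plaur encodes the receptor that holds urokinase, the product of Plau, at the cell surface, Plat encodes tissue plasminogen activator, and Serpine2 encodes protease nexin-1, a brain serpin that blocks both activators and thrombin. Metalloproteinases cut matrix proteins, and the membrane-bound Mmp14 activates the secreted Mmp2 with Timp2 as a bridge. Timp1, Timp2 and Timp3 bind and block metalloproteinases, and Timp3 also stays bound to the matrix.

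Promoters of 6 of the 9 genes were matched in RefSeq (GRCm38.p6), those of Plaur, Serpine2, Timp1, Timp2, Timp3 and Mmp14. Those of Plaur, Timp1, Timp2 and Timp3 are printed from 250 bases before to 50 bases after the gene start, 5′ to 3′ on the gene's strand, because Plaur and Timp1 lay on one side and Timp2 and Timp3 on the other in the levels given below. In this order, they lie at chr7:24462233-24462532 (plus strand), chrX:20869916-20870215 (plus), chr11:118355362-118355661 (minus) and chr10:86300162-86300461 (plus), the Plaur window around a start inside the annotated gene. Capitals mark matches, on either strand, to the motifs AP-1 (TGANTCA) and Sp1 (GGGCGG); CRE (TGACGTCA) and the TATA box (TATAAA) were searched too and are not in these windows.
Plaur: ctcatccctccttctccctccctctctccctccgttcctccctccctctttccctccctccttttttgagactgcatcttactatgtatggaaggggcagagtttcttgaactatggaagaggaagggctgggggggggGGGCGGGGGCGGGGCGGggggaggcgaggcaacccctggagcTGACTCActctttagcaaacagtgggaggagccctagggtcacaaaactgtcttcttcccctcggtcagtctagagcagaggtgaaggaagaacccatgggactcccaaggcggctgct
Timp1: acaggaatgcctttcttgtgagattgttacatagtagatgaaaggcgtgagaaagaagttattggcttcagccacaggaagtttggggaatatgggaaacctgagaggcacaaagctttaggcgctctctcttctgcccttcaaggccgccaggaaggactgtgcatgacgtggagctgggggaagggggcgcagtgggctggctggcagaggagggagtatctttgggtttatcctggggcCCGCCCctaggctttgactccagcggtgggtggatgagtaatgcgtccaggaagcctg
Timp2: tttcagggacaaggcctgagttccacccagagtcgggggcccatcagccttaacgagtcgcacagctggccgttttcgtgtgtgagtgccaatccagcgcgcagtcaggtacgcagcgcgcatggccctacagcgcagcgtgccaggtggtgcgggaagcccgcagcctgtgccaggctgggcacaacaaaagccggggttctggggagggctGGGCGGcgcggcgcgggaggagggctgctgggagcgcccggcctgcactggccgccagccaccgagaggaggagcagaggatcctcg
Timp3: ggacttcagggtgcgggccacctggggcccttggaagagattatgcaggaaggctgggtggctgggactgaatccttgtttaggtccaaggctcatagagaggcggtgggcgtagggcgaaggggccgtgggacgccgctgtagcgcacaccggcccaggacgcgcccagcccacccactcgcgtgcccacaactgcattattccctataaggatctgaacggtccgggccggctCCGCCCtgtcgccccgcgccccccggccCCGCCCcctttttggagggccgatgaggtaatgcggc

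The Plaur promoter holds 1 AP-1 match, 69 bases before the start used, and 3 adjoining or overlapping Sp1 matches. An AP-1 match was found in 7.79% of 32544 RefSeq promoters of this length, an Sp1 match in 35.9%, a TATA box in 13.6% and a CRE in 1.80%. All 6 promoters held at least 1 Sp1 match, with 6 in Serpine2. The promoters differed in CpG dinucleotides: Plaur had 7, Timp1 had 8 and Mmp14 had 10, against 24 in Timp3, 25 in Timp2 and 41 in Serpine2, with a median of 7 over all promoters. The motif matches and counts are descriptions of the letters in the window.

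The Cbx3 signal did not follow all labels. Signals are log2 values relative to each array's 75th percentile, so that 0 is the level below which 75% of the spots of that array lie. Cbx3 had -2.03 on the array labelled KO adherent 1 and 5.91 on KO adherent 2. It had -1.86, -2.76 and -1.75 on KO floating 1, 2 and 3, and 5.83, -2.17 and 5.95 on WT floating 1, 2 and 3. The arrays labelled KO adherent 2 and WT floating 2 thus opposed their labels, and each comparison below is given with and without them. Between 44.5% and 55.4% of the spots of an array were well above background. The immediate early gene Nr4a1 had 4.83 on KO floating 2 and 4.50 on WT floating 2, and 7.43 or more on the other 6 arrays. Of 9 markers of the ganglionic eminence, Dlx5, Gsx2, Nkx2-1 and Gad2 were above background on no array, while all 11 neural stem markers, such as Fabp7, were above background on every array.

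Plaur, the urokinase receptor (chr7:24460937-24475970, GRCm38.p6), was measured above background on 3 of 8 arrays. It had -6.44 and -2.07 on KO adherent 1 and 2, with only the second above background. It had -6.45, -5.89 and -5.98 on the KO floating arrays, none above background, and -1.66, -6.73 and -1.63 on the WT floating arrays, where the middle value was not above background. The 3 arrays that showed Plaur were the 3 with high Cbx3. As labelled, Plaur was at least 1.87-fold lower in KO floating than in WT floating, where 2 of 3 arrays measured it. Without WT floating 2 it was at least 6.06-fold lower. The mean signals were then -6.11 ± 0.30 in KO floating (SD, n = 3), which is background and no measured level, and -1.65 ± 0.02 in WT floating (SD, n = 2). These folds are bounds: each KO floating array entered with the higher of its own Plaur signal and its lowest signal well above background. As labelled, the dim WT floating 2 entered with its own signal, so the 1.87-fold rests in part on an unmeasured value. Since these are bulk samples, fewer cells that express a gene and less RNA per cell cannot be told apart.

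Plau, the ligand's gene (chr14:20836662-20843388), was above background on none of the 8 arrays. Its signals lay between -6.92 on WT floating 2 and -5.45 on WT floating 3, so only an upper bound on its level is known in every group. Plasminogen itself (Plg), the matrix ligand Vtn and the contact factor F12 were above background on no array either. The receptor was thus the one measured part of the pair of receptor and ligand.

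Plat, the tissue plasminogen activator (chr8:22757722-22782848), was above background on all arrays and varied least. It had 4.41 and 4.57 in KO adherent, 4.58, 4.71 and 4.59 in KO floating, and 4.52, 4.63 and 4.44 in WT floating. Its whole range over the 8 arrays was 0.30 on the log2 scale, and the arrays with high Cbx3 lay among the others. The 2 highest values were on KO floating 2 and WT floating 2, the arrays with the lowest Nr4a1. The KO floating minus WT floating difference was 0.09 (SE 0.15, 95% interval -0.26 to 0.45, limma adjusted p = 0.848). Both KO adherent arrays lay below the lowest KO floating array, with a difference of -0.14 (SE 0.17, limma adjusted p = 0.99).

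Serpine2, the inhibitor of both activators (chr1:79794317-79858665), had 6.04 and 6.10 in KO adherent, 6.23, 6.05 and 6.25 in KO floating, and 5.65, 6.15 and 5.71 in WT floating. WT floating 1 and 3 were the lowest, and here KO adherent 2 went with the other KO arrays and not with them. As labelled the groups overlapped, and the KO floating minus WT floating difference was 0.34 (SE 0.19, limma adjusted p = 0.814). It was 0.49 (SE 0.16) without the 2 arrays. The sign was opposite to that of the receptor and the size far smaller.

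Timp1, a soluble inhibitor of metalloproteinases (chrX:20870166-20874737), had the widest range of the 9 genes, 5.37 on the log2 scale. It had 0.17 and 4.49 in KO adherent, 0.67, -0.25 and 2.24 in KO floating, and 4.91, -0.14 and 5.12 in WT floating, and it was above background on all arrays. The 3 arrays above 4 were those with high Cbx3, and below them KO floating 3 was the highest and KO floating 2 the lowest. As labelled, Timp1 averaged 0.89 ± 1.26 in KO floating and 3.30 ± 2.98 in WT floating (SD, n = 3 each). The difference of -2.41 (SE 1.67, 95% interval -6.33 to 1.52) missed the threshold (limma adjusted p = 0.814). With the 2 arrays left out it was -4.13 (SE 0.75), with 5.02 ± 0.15 on WT floating 1 and 3 (SD, n = 2).

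Timp2 and Timp3, the inhibitors that take part in Mmp2 activation and in matrix binding, had the opposite order of arrays. Timp2 (chr11:118301061-118355411) had 5.81 and 4.93 in KO adherent, 5.78, 5.89 and 6.02 in KO floating, and 4.77, 5.82 and 5.00 in WT floating. The arrays KO adherent 2, WT floating 1 and WT floating 3 lay at 5.00 or below and all others at 5.78 or above. As labelled the KO floating minus WT floating difference was 0.70 (SE 0.34, 95% interval -0.08 to 1.49, limma adjusted p = 0.814), and without the 2 arrays it was 1.02 (SE 0.17). A second, dimmer Timp2 probe did not show the split: it had 0.51 and 0.27 in KO adherent, 0.70, 0.22 and 1.02 in KO floating, and 0.52, 0.67 and 0.43 in WT floating. The direction of Timp2 therefore rests on the brighter of its 2 probes.

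Timp3 (chr10:86300412-86349505) had 5.27 and 4.36 in KO adherent, 5.32, 5.46 and 5.29 in KO floating, and 4.76, 5.18 and 4.63 in WT floating. All KO floating arrays lay above all WT floating arrays, also with WT floating 2, which was the highest of its group. The difference was 0.50 (SE 0.27, 95% interval -0.14 to 1.13, limma adjusted p = 0.814), and 0.66 (SE 0.16) without the 2 arrays. Timp3 was the single one of the 6 tested members whose KO floating and WT floating arrays did not overlap, against 8.41% of all 22641 features with a value on every array (3.82% higher and 4.59% lower in KO floating).

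**Figure D1:**
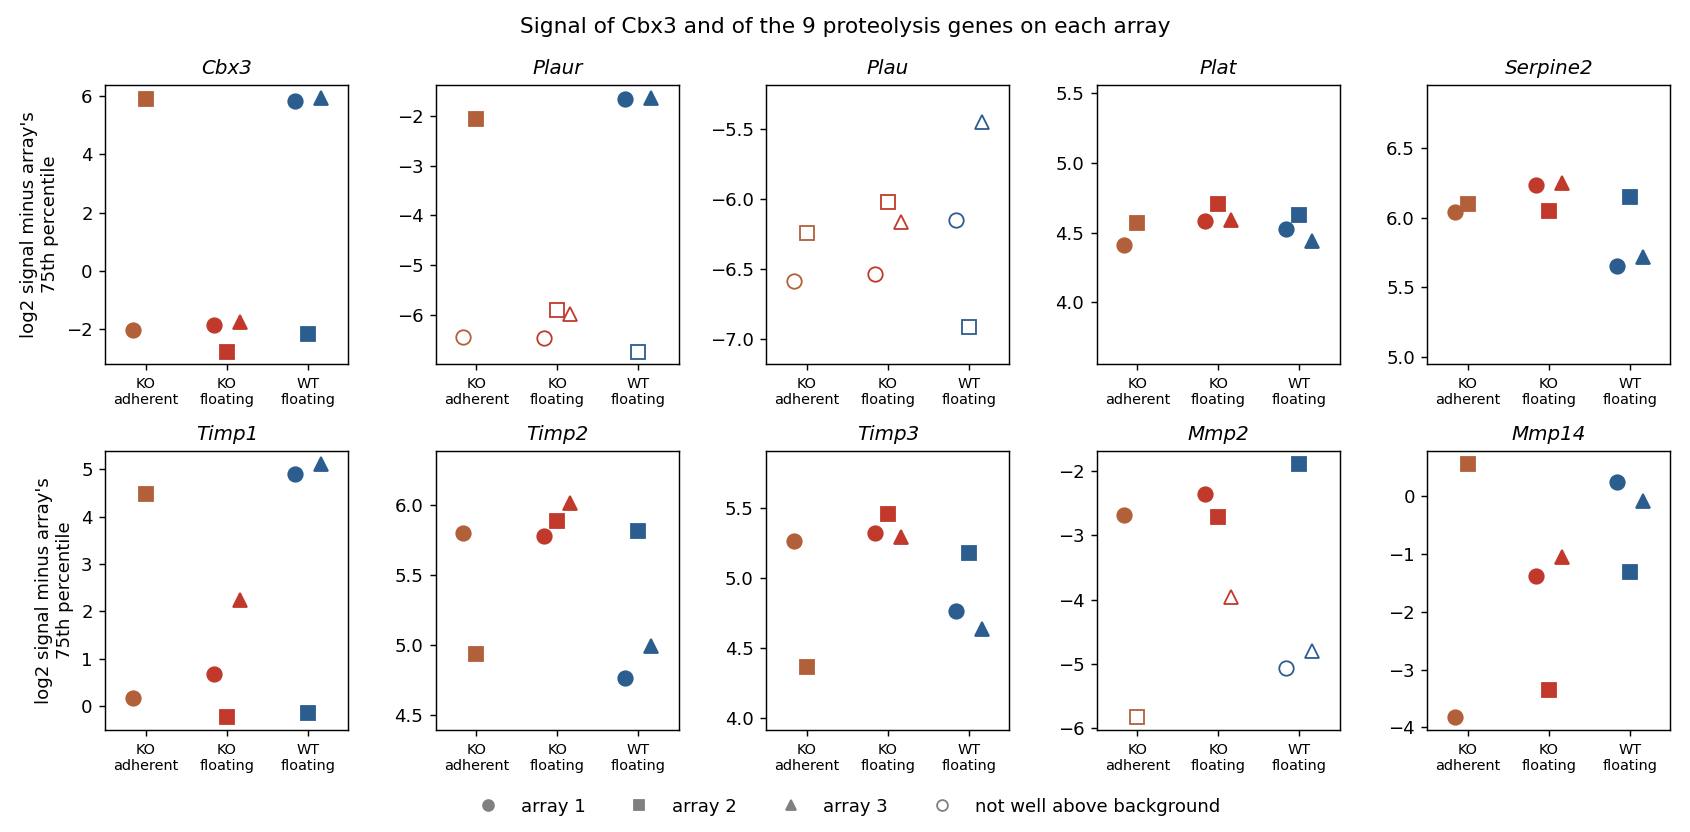
Log2 signal minus the array's 75th percentile (vertical axis) of Cbx3 and the 9 genes, by group (horizontal axis), with 1 point per array, its shape giving the array's number; open points were not well above background, and each panel has its own scale. The squares of KO adherent and WT floating lie with the opposite genotype for Cbx3, Plaur, Timp1, Timp2 and Mmp2, while Plat spans 0.30 in all.

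The metalloproteinases Mmp2 and Mmp14 had opposite orders of arrays. Mmp2, a gelatinase (chr8:92827290-92853421), was above background on 4 of 8 arrays. It had -2.69 and -5.83 in KO adherent, with the first above background. It had -2.36, -2.72 and -3.96 in KO floating, with the first 2 above background, and -5.06, -1.89 and -4.81 in WT floating, with the second above background. Its highest value was thus on the array labelled WT floating 2, and all 3 arrays with high Cbx3 were below background. With the 2 arrays left out Mmp2 was at least 1.73-fold higher in KO floating than in WT floating, measured on 2 of 3 KO floating arrays and on 0 of 2 WT floating arrays. As labelled no group had it above background on every array, so it was not tested.

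Mmp14, the membrane-bound activator of Mmp2 (chr14:54431598-54442456), had -3.83 and 0.57 in KO adherent, -1.38, -3.36 and -1.04 in KO floating, and 0.25, -1.30 and -0.08 in WT floating, above background on all arrays. The 3 arrays with high Cbx3 were the highest, but the others spread over 2.78 on the log2 scale, with KO adherent 1 and KO floating 2 far below the rest. As labelled the KO floating minus WT floating difference was -1.55 (SE 1.15, 95% interval -4.24 to 1.14, limma adjusted p = 0.814), and -2.01 (SE 0.74) without the 2 arrays.

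In KO floating against WT floating as labelled, 6 of the 9 genes were tested, those well above background throughout 1 or more groups, and 0 passed a Benjamini-Hochberg adjusted p of 0.05 in limma. In all 0.00440% of 22718 features passed, 1 feature, and 394 had an unadjusted p under 0.05. None of the 6 members was among those 394, the smallest unadjusted p being 0.0729 for Timp2. Of the 6, 4 were higher and 2 lower, with a median difference of 0.22, against -0.03 over all features. Within the first slide row, which held 2 arrays of each of these groups, the differences were -2.17 for Timp1, 0.55 for Timp2 and 0.42 for Timp3. Within the second row, with 1 array each, they were -2.88 for Timp1, 1.02 for Timp2 and 0.66 for Timp3.

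Once KO adherent 2 and WT floating 2 are left out, the comparison of KO floating with WT floating is part of the one that chose the genes, so its values are a description from which nothing is read. In that fit 1 of 8 tested members passed, Plaur, which entered the fit only through the WT arrays; 0.177% of 26034 features passed, 0.0960% higher and 0.0807% lower. The count was 0 members with the replicate number as a block and also when KO floating 1, KO floating 2, KO floating 3 or WT floating 3 was left out in turn. The joined comparison is likewise one of arrays with low against arrays with high Cbx3, and its counts of members are a description too. With the 4 remaining KO arrays of both cultures joined against WT floating 1 and 3, 4 of 7 tested members passed, 2 higher (Timp2 and Timp3) and 2 lower (Plaur, again through the WT arrays, and Timp1), while 17.4% of 21520 features passed, of which the lower ones made up 8.36% of all features. In the joined comparison Plaur was at least 6.38-fold lower in KO, measured on 0 of 4 KO arrays and on 2 of 2 WT arrays. The log2 differences were -4.30 (SE 0.66) for Timp1, -2.49 (SE 0.84) for Mmp14, 0.99 (SE 0.14) for Timp2, 0.64 (SE 0.13) for Timp3, 0.46 (SE 0.13) for Serpine2 and 0.09 (SE 0.14) for Plat. Of the 7 members, 6 had KO and WT arrays that did not overlap, 3 lower and 3 higher in KO, as had 53.4% of all features (24.0% higher and 29.3% lower), and Plat overlapped. The joined comparison holds 1 adherent and 3 floating KO arrays, so culture and genotype cannot be told apart for the adherent one. The count of 4 members became 1 without KO adherent 1, without WT floating 1 or without WT floating 3, 2 without KO floating 1, 5 without KO floating 2 and 6 without KO floating 3.

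**Figure D2:**
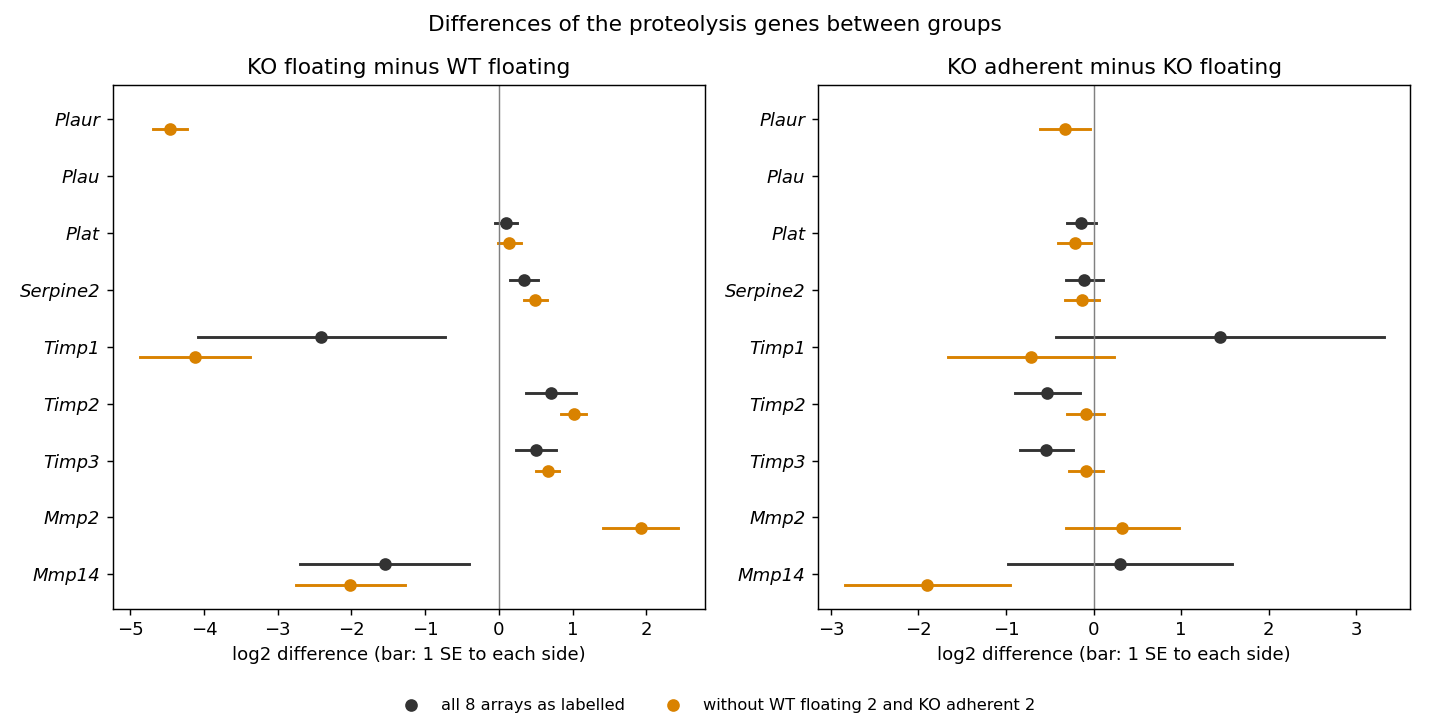
Log2 differences (horizontal axis, bars of 1 SE to each side, limma) of the 9 genes (rows) for KO floating minus WT floating, left, and KO adherent minus KO floating, right, with all 8 arrays and without WT floating 2 and KO adherent 2; Plau was not tested, Plaur and Mmp2 only without the 2 arrays, where their values are fitted against arrays at background and are no measured sizes. On the left Timp1 lies at -2.41 and -4.13 and Plat near 0, and on the right the differences without the 2 arrays lie between -1.90 and 0.33.

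The comparison of adherent with floating culture in KO neurospheres did not enter the choice of the genes when the 2 arrays are left out. As labelled, 0 of 6 tested members and 0% of 22718 features passed limma, with 255 features at an unadjusted p under 0.05. KO adherent averaged 2.33 ± 3.05 (SD, n = 2) and KO floating 0.89 ± 1.26 (SD, n = 3) for Timp1, so that the spread within each group exceeded the difference of 1.44 (SE 1.87, limma adjusted p = 0.99). The arrays of both groups did not overlap for Plat and Timp3, both lower in KO adherent, 2 of 6 members against 12.8% of all features (7.98% higher and 4.80% lower in KO adherent). The Timp3 difference was -0.54 (SE 0.30, 95% interval -1.25 to 0.17, limma adjusted p = 0.99).

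With the 2 arrays left out, KO adherent 1 alone stood for adherent culture and was assumed to vary like the other groups; 0 of 8 members and 0% of 26034 features passed limma, with 1004 features at an unadjusted p under 0.05. Plaur was above background on none of the arrays compared, so no direction is given for it. Mmp14 had the largest difference, -1.90 (SE 0.94, 95% interval -4.32 to 0.52, limma adjusted p = 1), and its direction was opposite to the 0.30 (SE 1.28) found as labelled. Timp1 differed by -0.71 (SE 0.94), also turned from the value as labelled. For Timp2 the difference was -0.09 (95% interval -0.65 to 0.46) and for Timp3 -0.09 (95% interval -0.60 to 0.42). The inhibitors Timp2 and Timp3 on KO adherent 1 thus lay within the spread of the KO floating arrays or next to it.

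KO adherent and WT floating differ in both genotype and culture. As labelled, 0 of 6 tested members passed limma in this comparison, and 0.00440% of 22718 features did. The differences ranged from -1.25 (SE 1.28) for Mmp14 to 0.23 (SE 0.21) for Serpine2, each with a limma adjusted p of 1. Each of these groups holds 1 array that opposes its label, and Timp1 had 1 low array in each of them. When both are left out, 0.0154% of 26034 features passed, 0.00384% higher and 0.0115% lower, and no member was among them.

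Other genes of the pathway were taken from 7 lists: plasminogen activation, serpins, metalloproteinases, TIMPs with Reck, ADAM and ADAMTS proteases, cell surface partners, and substrates with released factors. Of their 105 genes besides the 9, 71 were tested as labelled and 0 passed limma in KO floating against WT floating, 3 of them with an unadjusted p under 0.05. With the 2 arrays left out, 76 were tested in KO floating against WT floating and 0 passed. In the joined comparison 26 of 71 passed, 6 higher and 20 lower in KO, 36.6% against 17.4% of all features. Their median difference was -0.36, against -0.07 over all features. Like the 9 genes, the lists were drawn up with results of these data known. The joined comparison also sets arrays with low against arrays with high Cbx3, so nothing is read from the higher share. In that comparison Cpb2, Adamts8, Adamts10 and Adamts15 were above background on KO arrays only or on WT arrays only. The passing list genes named below passed in the joined comparison alone.

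Among plasminogen activation genes, Anxa2, a plasminogen receptor subunit, fell by 1.97 (SE 0.52, limma adjusted p = 0.0486). Cpb2, a carboxypeptidase that slows plasmin formation, was at least 1.83-fold higher in KO. It was above background on none of the WT arrays in the comparison and entered the fit only through the KO arrays. Of 6 further serpins 0 passed (median -0.70), and the brightest of them, Serpinh1, a collagen chaperone, had 5.10 and 5.85 in KO adherent, 5.38, 4.93 and 5.53 in KO floating, and 5.56, 5.30 and 5.61 in WT floating. Of 22 metalloproteinases 12 were above background on no array, and the gelatinase gene Mmp9 was one of them. Of 4 tested besides Mmp14, Mmp19 fell by 0.997 (SE 0.25, limma adjusted p = 0.0451) and the membrane-anchored Mmp17 by 0.78 (SE 0.16, limma adjusted p = 0.0306), and the other two missed the threshold.

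Timp4, the fourth TIMP, rose by 1.47 (SE 0.19, limma adjusted p = 0.0129), with 5.32 and 4.57 in KO adherent, 5.33, 5.56 and 5.39 in KO floating, and 3.64, 5.35 and 4.23 in WT floating. Its array pattern was that of Timp3 and of the brighter Timp2 probe. These 3 lay higher and Timp1 lower on arrays with low Cbx3, while the dimmer Timp2 probe showed no split. This too is a description, since Timp1 was chosen by that order of arrays. Reck, a membrane-anchored inhibitor, had a difference of -0.07 (SE 0.14) and did not pass.

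Of 24 tested ADAM and ADAMTS proteases 8 fell and 2 rose in the joined comparison. Adamts15 was at least 2.52-fold lower and above background on no KO array in it, Adamts14 fell by 1.65 (SE 0.26), Adam23 by 1.63 (SE 0.20) and Adamts4 by 1.36 (SE 0.35). Of 11 cell surface partners 4 fell and 1 rose: the syndecan Sdc1 fell by 1.84 (SE 0.41), the integrins Itga5 by 1.16 (SE 0.27) and Itgb1 by 1.07 (SE 0.28), while Lrp2, an endocytic receptor, rose by 1.78 (SE 0.44). Lrp2 was not above background on WT floating 3, so its size rests in part on an unmeasured value. Of 18 substrates and released factors 5 fell and 1 rose, with Hbegf, a growth factor shed by metalloproteinases, at -2.14 (SE 0.31) and the basement membrane genes Nid1, Lama5 and Lamc1 at -1.48 (SE 0.30), -1.15 (SE 0.31) and -1.11 (SE 0.16). Adamts15 entered the fit only through the WT arrays. Each of the others named here had a limma adjusted p between 0.0115 and 0.0498.

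**Figure D3:**
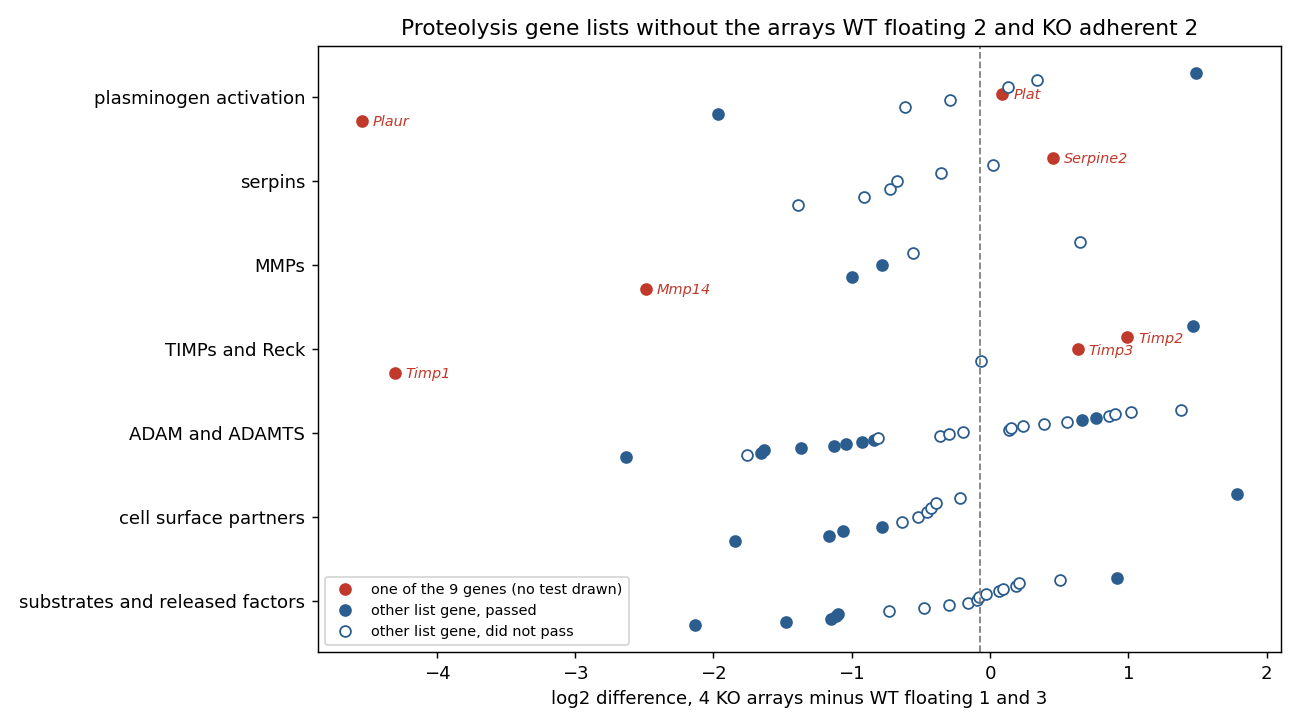
Log2 differences (horizontal axis) between the 4 KO arrays and WT floating 1 and 3 for each tested gene of the 7 lists (rows; within a row genes are spread by value), filled blue where a gene besides the 9 passed an adjusted p of 0.05 in limma; the dashed line is the median of all features, -0.07. Plaur, Timp1 and Mmp14 are the lowest of their lists, and Timp2 and Timp3 lie with the unlabelled Timp4 on the right; the position of Plaur is fitted against KO arrays at background.

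The genes most like Plaur over the 8 arrays were Snrnp27 (Pearson r = 0.994), Prkacb (0.993), Cops6 (0.992), Stip1 (0.991) and Prss12 (0.990), out of 12771 named genes compared. Those most like Timp1 were Arpc2 (0.998), C1qbp (0.997), Cfap410 (0.996), Copb1 (0.996) and Mpv17 (0.996), out of 12770. Since the arrays fall into separate levels for these genes, such coefficients mostly measure that split. Arpc2 followed Timp1 also in lying above the other low arrays on KO floating 3, with 6.68 and 7.62 in KO adherent, 6.82, 6.65 and 7.14 in KO floating, and 7.70, 6.67 and 7.68 in WT floating.

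Markers of other cells were compared by their signal summed over each list, on the linear scale relative to the 75th percentile. Fibroblast and pericyte genes, of which 3 of 10 (Lum, Pdgfrb and Rgs5) were above background on no array, summed to 1.35 to 4.11 in KO adherent, 1.23 to 2.85 in KO floating and 2.59 to 4.83 in WT floating. This sum was highest on the 3 arrays with high Cbx3 (4.11 on KO adherent 2, 3.85 on WT floating 1 and 4.83 on WT floating 3), the arrays on which Plaur, Timp1 and Mmp14 were highest. Endothelial genes, with Cdh5, Cldn5 and Tie1 above background on no array, summed to 12.9 to 19.9, 12.2 to 13.8 and 12.7 to 16.7 in the same order. The other 5 of 8 were above background on at least 1 array, and Kdr, Flt1 and Pecam1 were the brightest. Microglia genes, with Aif1, Cx3cr1, Ptprc, C1qa and Tyrobp above background on no array, summed to 13.5 to 27.4, 16.2 to 22.8 and 14.2 to 15.2. The other 4 of 9 with a probe were above background on at least 1 array, and Itgam, Csf1r and C1qb were the brightest. Their sum too was lowest on the 3 arrays with high Cbx3 (13.5, 14.9 and 14.2), next to 15.2 on WT floating 2. Astrocyte genes, all 7 above background on at least 1 array, summed to 122 to 237, 183 to 307 and 69.0 to 234, with the lowest sums on the 3 arrays with high Cbx3. Oligodendrocyte lineage genes, all 8 of them above background on every array, summed to 78.6 to 137, 138 to 198 and 50.8 to 194, again lowest on those 3 arrays. The same 3 arrays had the lowest sums of neural stem genes, which were 528 to 946, 670 to 988 and 515 to 851, and of neuron genes, which were 24.1 to 37.0, 30.5 to 34.5 and 23.8 to 29.7, with 1 of 8 neuron genes (Stmn2) above background on no array. Linear sums weigh the brightest genes most, and the genes of a list did not all go the same way. In the joined comparison 7 of 11 tested neural stem genes and 5 of 6 neuron genes were higher in KO. For astrocyte and oligodendrocyte lineage genes it was 4 of 6 and 6 of 8. The part of these shifts in the levels of the 9 genes was not tested.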

How the data were processed

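Total RNA was labelled with Cy3 and hybridised to 8 single-colour Agilent arrays. The authors deposited spot intensity, unlogged, in scanner files and in a value table that equals their processed signal. Agilent Feature Extraction was version 11.0.1.1 per the file headers and 9.1.3.1 per the submitters' processing notes. Here log2 of the processed signal was taken and each array's 75th percentile (616 to 865) over non-control spots was subtracted. Outlier spots were dropped and repeats of a probe averaged. By accession, 27235 of 55681 probes were tied to RefSeq genes (GRCm38.p6). Tested probes were well above background throughout 1 or more groups, and the brightest stood for a gene. No member was saturated on any array.

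Two-sided moderated tests came from limma 3.58.1 (R 4.3.3), with all 8 arrays in one fit and Benjamini-Hochberg adjustment over all features; the threshold was 0.05. The fit was tested on simulated data. The 9 genes, the lists and the alternatives were chosen with earlier results of these data known. Named were the 9 genes, Cbx3, Nr4a1, up to 4 passing, non-overlapping genes per pathway list (otherwise up to 2 of the brightest) and the 5 genes most like Plaur and Timp1. For same-numbered floating arrays the deviations from group means correlated across features (r of 0.103, 0.590 and 0.335 for numbers 1, 2 and 3). Each was over 0.1, so the number was also tried as a block. The main fits have no block and ignore any pairing. Among differently numbered floating arrays KO floating 3 and WT floating 1 reached 0.346, KO floating 1 and WT floating 3 reached 0.205, and the rest were below 0. Same-numbered adherent and floating arrays had r below 0.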

Additional observations from a re-analysis of the deposited data

How the results depend on the processing

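In KO floating against WT floating as labelled, 0 of the members passed limma under all 11 alternatives to scaling, background, filter, probes, samples, variance and blocks (0 with the replicate block) and when each array was dropped (0 to 0), and no member's direction turned in any of them. The alternatives to filter, probes, samples, variance and blocks leave the difference itself unchanged, as does dropping a KO adherent array. A direction could thus turn only under another scaling, background or value table, or without a floating array. Leaving out the 2 arrays that oppose their Cbx3 label, 1 of 8 passed (Plaur), 1 with no filter, and 0 with the replicate block; with a further array left out it was 0 to 1. With the KO cultures joined 4 of 7 passed, and 1 to 6 with a further array left out. It was 1 with no filter and 5 with quantile normalization or normexp, where Serpine2 was added. Under these 2 scalings 3069 and 3548 of 21520 features passed. As above, the counts of members without the 2 arrays are a description from which nothing is read. The 5 settings that combine the smaller sets of arrays with another filter, block or scaling were chosen after seeing the data. All features past the threshold numbered 1 as labelled (0 to 3 with 1 array left out), 46 with the 2 arrays left out (0 to 463 with a further array dropped, 11 with no filter) and 3735 with the cultures joined (463 to 5385, and 179 with no filter). Quantile normalization gave 7 features in KO adherent against KO floating, against 0, and 8 in KO adherent against WT floating, against 1.

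For KO adherent against KO floating and against WT floating, 0 members passed under every alternative run (0 to 0 with 1 array left out), the replicate block included. Directions there depend on the arrays. Against KO floating, Timp1 turned to -0.15 with the slide row as a block and -0.71 without the 2 arrays, and Mmp14 to -0.29 and -1.90. When each array was dropped in turn, Timp1 ranged from -0.71 to 3.60 (turned without KO adherent 2) and Mmp14 from -1.90 to 2.499 (turned without KO adherent 2 and, at -0.42, without KO floating 2). Against WT floating, the slide row turned Plat to 0.017 and Timp3 to 0.10, and Timp3 was 0.57 without the 2 arrays. When each array was dropped in turn, Plat ranged from -0.12 to 0.034 (turned without KO adherent 1, and without WT floating 2), Timp1 from -3.12 to 1.19, Timp2 from -0.26 to 0.61, Mmp14 from -3.45 to 0.95 (each turned without KO adherent 1, Timp2 also without WT floating 1), and Timp3 from -0.50 to 0.41 (turned without KO adherent 2, and without WT floating 2). The cause was not tested. Precision is limited by 2 or 3 arrays a group, and for Plaur, Plau and Mmp2 by signals at background.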

Other observations

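Timp1 had its 2 lowest values, -0.25 and -0.14, on KO floating 2 and WT floating 2, next to 0.17 on KO adherent 1. On those same arrays the summed signal of 16 immediate early genes was 163 and 160, against 532 or more on the other 6 arrays.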
